A study of Homo sapiens with 2 samples.

Results

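The 10 genes described here code for secreted factors, a membrane-bound ligand and receptors with known roles in the spread of breast cancer to bone and in bone breakdown. They were chosen by name, and the measurement is the set of RUNX2 and MTA1 peaks that lay inside each gene or within 50 kb of its ends, in RefSeq coordinates of GRCh38. The genes were TNFSF11, TNFRSF11B, CSF1, PTHLH, IL11, JAG1, CXCR4, ADAMTS1, DKK1 and NOG, 10 of the 20037 protein-coding genes of the annotation. Around them lay 49 of the 61700 RUNX2 peaks and 41 of the 42683 MTA1 peaks.

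RUNX2 is a transcription factor known as a master regulator of osteoblasts, and MTA1 belongs to NuRD, which remodels nucleosomes and removes histone acetyl groups. Both were profiled in MDA-MB-231, an established triple-negative breast cancer line, by CUT&Tag, in which a transposase brought in by the antibody cuts and tags the DNA beside the bound protein. Each antibody had 1 library from cells with no stated treatment, no replicate and no control library analysed here, so no test between the libraries or against a background was possible, and the depth of the libraries is unknown. The peaks come from 1 cell line grown in culture, without the osteoclasts, osteoblasts and marrow stroma on which these factors act.

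Bone is broken down by osteoclasts, which form from myeloid precursors under the ligands M-CSF and RANKL and are restrained by the decoy receptor osteoprotegerin. Tumour cells in bone shift this balance towards resorption through secreted PTHrP and interleukin 11 and through Jagged1 on their surface, and the resorbed matrix releases growth factors that feed the tumour. Osteoblasts, the bone-forming cells, depend on Wnt and BMP signals, which the secreted inhibitors Dickkopf-1 and noggin block.

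RUNX2 peaks lay inside or within 50 kb of 10 of the 10 genes, and 90.8% of all protein-coding genes had one. MTA1 peaks lay there for 9 of the 10 genes, all except CXCR4, against 86.6% of protein-coding genes. A shared peak, meaning a peak that overlapped a peak of the other list by at least 1 bp, was found for the same 9 genes and for 80.1% of protein-coding genes. These shares were near the background, so having a peak within 50 kb does not set the 10 genes apart from other genes. They differed among themselves in how many peaks they had, where the peaks lay and which protein had the higher-ranking peak.

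Of the 10 genes, JAG1 and DKK1 had peaks on the promoter that the RefSeq table gives for them, and their sequences are printed below beside that of IL11, a promoter with no peak. Each is the 250 bases upstream of the transcription start on the strand of the gene, from RefSeq GRCh38.p14. Capitals mark the bases that lay within both a RUNX2 and an MTA1 peak. The JAG1 sequence is chr20:10674000-10674249 on the minus strand, the DKK1 sequence is chr10:52314031-52314280 on the plus strand and the IL11 sequence is chr19:55370464-55370713 on the minus strand.
JAG1: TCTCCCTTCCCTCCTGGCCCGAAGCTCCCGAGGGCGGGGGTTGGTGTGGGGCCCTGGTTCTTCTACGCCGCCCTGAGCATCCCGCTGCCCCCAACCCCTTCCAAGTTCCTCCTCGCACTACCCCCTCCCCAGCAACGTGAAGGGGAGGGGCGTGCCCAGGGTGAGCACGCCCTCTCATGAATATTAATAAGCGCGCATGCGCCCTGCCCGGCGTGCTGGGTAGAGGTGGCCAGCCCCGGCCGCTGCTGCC
DKK1: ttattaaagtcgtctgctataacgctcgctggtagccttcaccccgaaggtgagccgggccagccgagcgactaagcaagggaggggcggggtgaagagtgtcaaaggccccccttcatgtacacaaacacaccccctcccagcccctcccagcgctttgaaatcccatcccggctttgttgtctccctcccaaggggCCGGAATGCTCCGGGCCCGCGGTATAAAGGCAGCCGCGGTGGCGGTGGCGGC
IL11: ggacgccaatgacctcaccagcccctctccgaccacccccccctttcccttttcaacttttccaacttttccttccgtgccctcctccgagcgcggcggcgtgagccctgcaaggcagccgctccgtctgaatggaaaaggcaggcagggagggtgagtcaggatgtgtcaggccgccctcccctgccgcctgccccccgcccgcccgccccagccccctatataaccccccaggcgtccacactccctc
All 250 bases upstream of JAG1 lay within both peaks. Upstream of DKK1, 159 bases lay within the RUNX2 peak and the 52 bases nearest the start within both. No base of the IL11 sequence lay within a peak of either list.

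The table held promoters for 6 of the 10 genes: TNFSF11, PTHLH, IL11, JAG1, CXCR4 and DKK1. A RUNX2 peak overlapped a promoter of 2 of these 6, where a promoter is the 250 bases before to 50 bases after a start, against 44.9% of the 15843 protein-coding genes in the table. An MTA1 peak overlapped a promoter of the same 2, against 48.4%. CpG content, which separates the open promoters of widely used genes from those of tissue-restricted genes, varied among them. The promoters of IL11, DKK1, PTHLH and JAG1 held 19, 20, 21 and 24 CpG dinucleotides in 300 bases. In promoters with 17 to 25 CpG, 54.5% of all 4406 had a RUNX2 peak and 61.1% an MTA1 peak. The promoters of JAG1 and DKK1, with peaks, thus lay in the same class as those of IL11 and PTHLH, without peaks. TNFSF11 has 2 listed starts with 3 and 14 CpG, and CXCR4 has 3 with 9, 14 and 27. None of these 5 starts had a peak. Among promoters with 0 to 5 CpG, as at the first start of TNFSF11, 4.28% had a RUNX2 peak and 4.03% an MTA1 peak. For 6 to 16 CpG, as at the starts with 9 and 14, these shares were 21.0% and 22.5%. For 26 to 34 CpG, as at the CXCR4 start with 27, they were 58.6% and 63.5%.

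**Figure D1:**
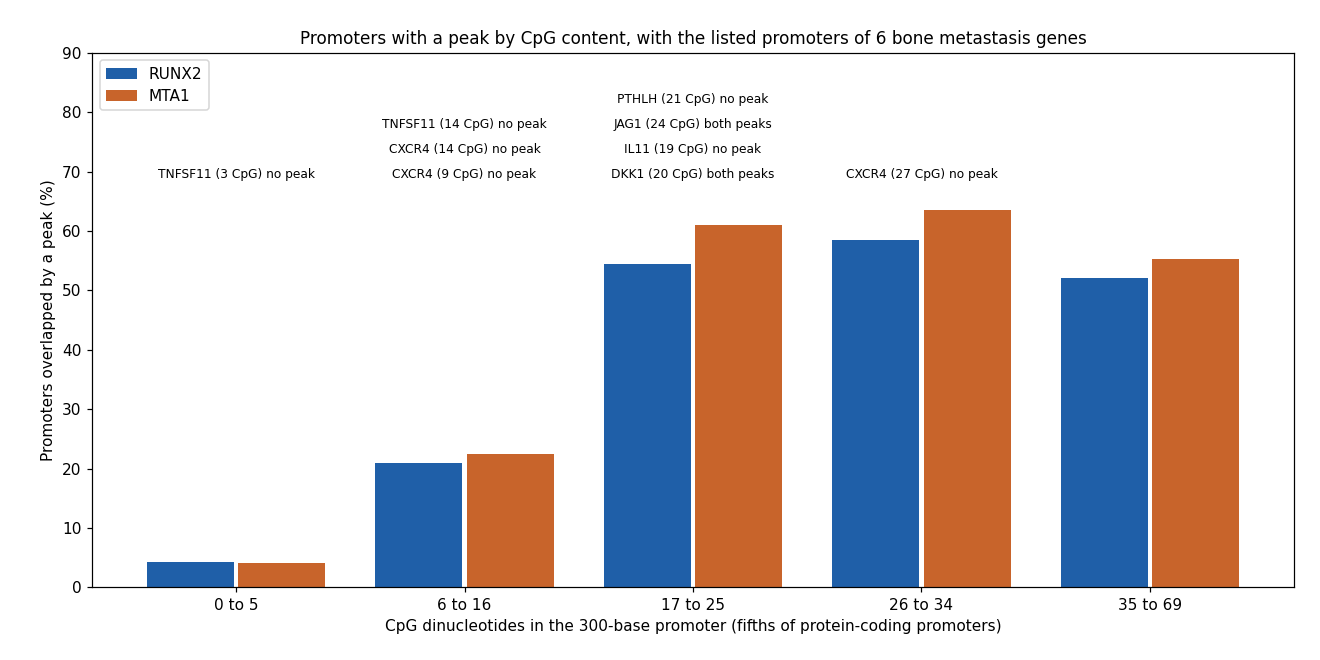
Share of protein-coding promoters overlapped by a RUNX2 (blue) or MTA1 (orange) peak, in percent (vertical axis), for 5 classes of CpG content of nearly equal size (horizontal axis, CpG dinucleotides in 300 bases), with the listed promoters of 6 genes written above their class. JAG1 and DKK1, with both peaks, stand in the same class as IL11 and PTHLH, which have none.

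The RUNX core motif was searched as TGTGGT or TGCGGT on either strand. It was present in 19.0% of the 22199 protein-coding promoters of 300 bases, in 21.4% of those with a RUNX2 peak and in 17.5% of those without one. For MTA1 the shares were 18.9% with a peak and 19.0% without. In DKK1 the reverse complement ACCGCA began 37 bases after the start, inside the region covered by both peaks. CXCR4 had a match at −218 of its second start, where no peak was found. The promoters of JAG1, IL11, PTHLH and TNFSF11 held no match. A match is a run of letters and does not show a binding site.

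**Figure D2:**
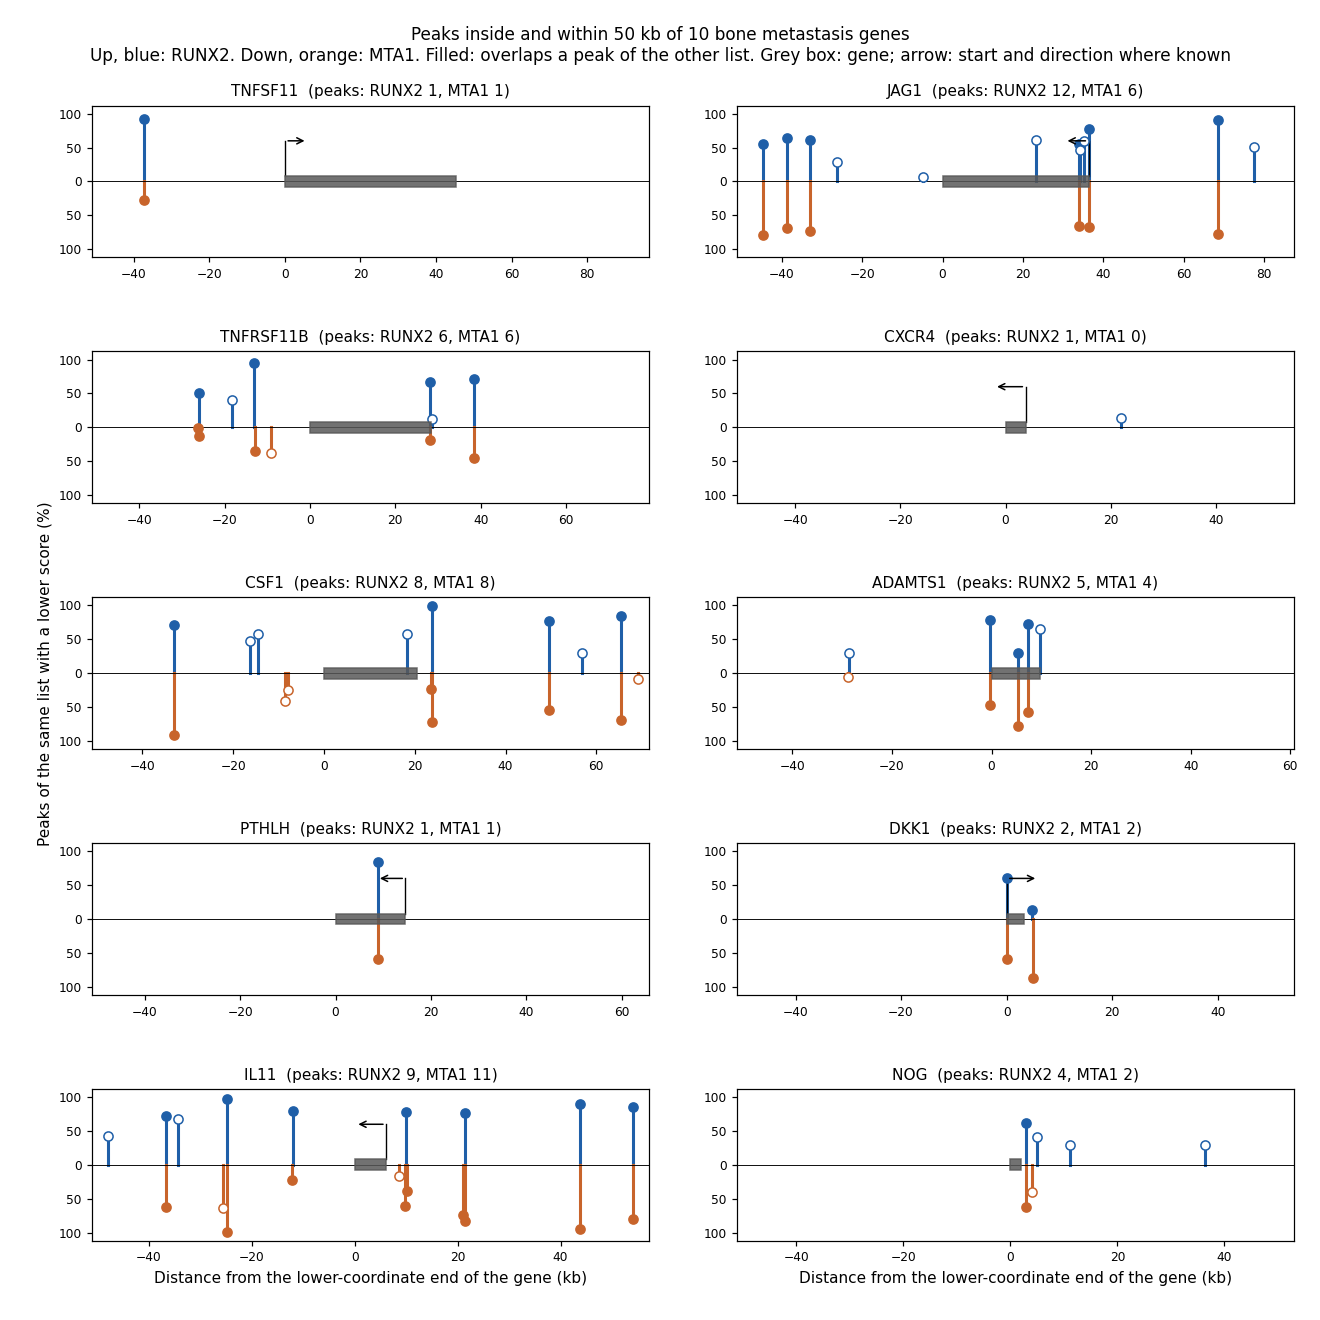
Peaks around each of the 10 genes, by distance in kb from the lower-coordinate end of the gene (horizontal axis) and by the share of the same list with a lower score in percent (vertical axis), RUNX2 upward in blue and MTA1 downward in orange. Filled points overlap a peak of the other list, and the single site far upstream of TNFSF11 contrasts with the 12 RUNX2 peaks around JAG1.

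The osteoclast ligands and their decoy receptor came to 15 RUNX2 and 15 MTA1 peaks, of which 9 and 11 were shared. TNFSF11 codes for RANKL, the ligand that drives osteoclast formation. Its window held 1 site of each list, an overlapping pair 37.2 kb upstream of the start and none inside the gene. The RUNX2 peak there, chr13:42525150-42525504, had a score of 27.8, which exceeded 92.9% of RUNX2 peaks. The MTA1 peak within it was 116 bp wide, the narrowest width of the MTA1 list, with a score of 5.76, higher than 27.7% of MTA1 peaks. The scale of the score is not stated and the libraries were not scaled to each other, so peaks of different lists are compared only by these ranks. The gap of 65.2 percentage points in favour of RUNX2 was higher than that of 97.2% of the 28440 overlapping pairs in the genome.

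TNFRSF11B codes for osteoprotegerin, the soluble decoy that binds RANKL. It had 6 RUNX2 peaks, 4 of them shared, and 6 MTA1 peaks, 5 of them shared. The strongest RUNX2 peak had a score of 34.5, higher than 95.7% of the list, and lay 12.9 kb beyond the lower-coordinate end (118910347 to 118910674), which is the downstream side of a gene read towards lower coordinates. The MTA1 peak that overlapped it scored 5.92, higher than 35.2% of MTA1 peaks. The top MTA1 peak of the window, with a score of 7.01, lay 10.1 kb beyond the other end and ranked above 44.5% of its list. RUNX2 had the higher rank in 5 of the 5 overlapping pairs, which were formed by the 4 shared RUNX2 peaks. A RUNX2 peak of score 9.52 (118951672 to 118951914) lay across the higher-coordinate end and overlapped an MTA1 peak of score 5.15. A further RUNX2 peak of 99 bp began 300 bp beyond that end with no MTA1 peak. COLEC10, a collectin gene, also ends within 3 kb of both, so these peaks cannot be assigned to either gene by distance.

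CSF1 codes for M-CSF, which keeps osteoclast precursors alive. With 8 RUNX2 and 8 MTA1 peaks, it carried the RUNX2 peak of highest score among all 10 genes. That peak, chr1:109933975-109934575, was 601 bp wide, lay 2.98 kb beyond the higher-coordinate end and had a score of 57.1, which exceeded 99.1% of the RUNX2 list. It covered 2 MTA1 peaks with scores of 5.34 and 12.2, which ranked above 23.7% and 72.5% of their list. At the other side of the gene the order was turned round. The strongest MTA1 peak (109877405 to 109877768), 32.7 kb beyond the lower end and inside the noncoding gene LINC01768, scored 24.0 and ranked above 91.6% of MTA1 peaks. The RUNX2 peak overlapping it scored 10.5, above 70.6%. The one peak inside CSF1 was a RUNX2 peak of score 7.60, 2190 bp from the nearer end, with no MTA1 peak. RUNX2 ranked higher in 4 of the 5 overlapping pairs at CSF1.

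The tumour-derived inducers of bone resorption, PTHLH, IL11 and JAG1, came to 22 RUNX2 peaks, 14 of them shared, and 18 MTA1 peaks, 16 of them shared. PTHLH codes for the parathyroid hormone-related protein, which makes osteoblasts produce RANKL. Its window held 1 RUNX2 and 1 MTA1 peak, and both lay in the same place inside the gene. The RUNX2 peak, chr12:27966912-27967094, lay 2882 bp downstream of the listed start and scored 17.1, above 83.9% of the RUNX2 list. It lay wholly within an MTA1 peak (27966842 to 27967165) of score 8.87, higher than 58.5% of MTA1 peaks. The promoter itself had no peak, and the next peaks outside the window were a RUNX2 peak at 54.0 kb and an MTA1 peak at 136 kb.

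IL11 codes for a cytokine that promotes osteoclast formation. It had 9 RUNX2 peaks, 7 of them shared, and 11 MTA1 peaks, 9 of them shared. None lay inside the gene. The window holds 11 other genes, 8 of them protein-coding, and an end of one of those was within 3 kb of 6 of the RUNX2 and 9 of the MTA1 peaks. The strongest peaks of both lists overlapped the promoter of KMT5C, a histone H4 lysine methyltransferase, 24.5 kb away. There the RUNX2 peak (55339185 to 55339887) scored 43.0 and the MTA1 peak 47.3, above 97.6% and 99.1% of their lists, and the MTA1 score was the highest around any of the 10 genes. A pair at the promoter of UBE2S, a ubiquitin-conjugating enzyme, scored 22.7 and 28.2. The peak nearest to IL11 was an MTA1 peak of score 4.97, 2.44 kb upstream of the start and above 16.9% of its list. The nearest RUNX2 peak lay 3.63 kb upstream (55374088 to 55374602), within 3 kb of an end of TMEM190. It had a score of 13.5 and covered 2 MTA1 peaks of scores 9.28 and 6.27. Most of the peaks counted for IL11 thus lay closer to other genes than to IL11, and a count per window does not say which gene a peak serves.

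JAG1 codes for a Notch ligand on the cell surface. It had the most RUNX2 peaks of the 10 genes, 12, and 6 MTA1 peaks, each of which overlapped a RUNX2 peak. Inside the gene lay 5 of the RUNX2 and 2 of the MTA1 peaks. The promoter pair shared its lower edge at 10673983. Its RUNX2 peak of 391 bp had a score of 13.2, above 77.4% of the list, and its MTA1 peak of 351 bp a score of 10.6, above 66.9%. Downstream of it, between 1061 and 2254 bp from the start at their nearer edge, lay 3 further RUNX2 peaks, with scores from 6.29 to 8.14, and 1 of these overlapped an MTA1 peak. The strongest RUNX2 peak of the window, with a score of 23.7 and above 90.3% of its list, lay 32.0 kb upstream (10706010 to 10706283). It overlapped an MTA1 peak of score 13.9, above 77.2%. Downstream, 3 shared pairs lay inside the neighbouring gene SLX4IP, which codes for a partner of a DNA repair nuclease. In these 3 MTA1 ranked higher, with scores from 11.1 to 14.8 against 7.26 to 8.98 for RUNX2, and one of them held the highest MTA1 score of the window, 14.8. In all, MTA1 ranked higher in 4 of the 6 pairs at JAG1.

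**Figure D3:**
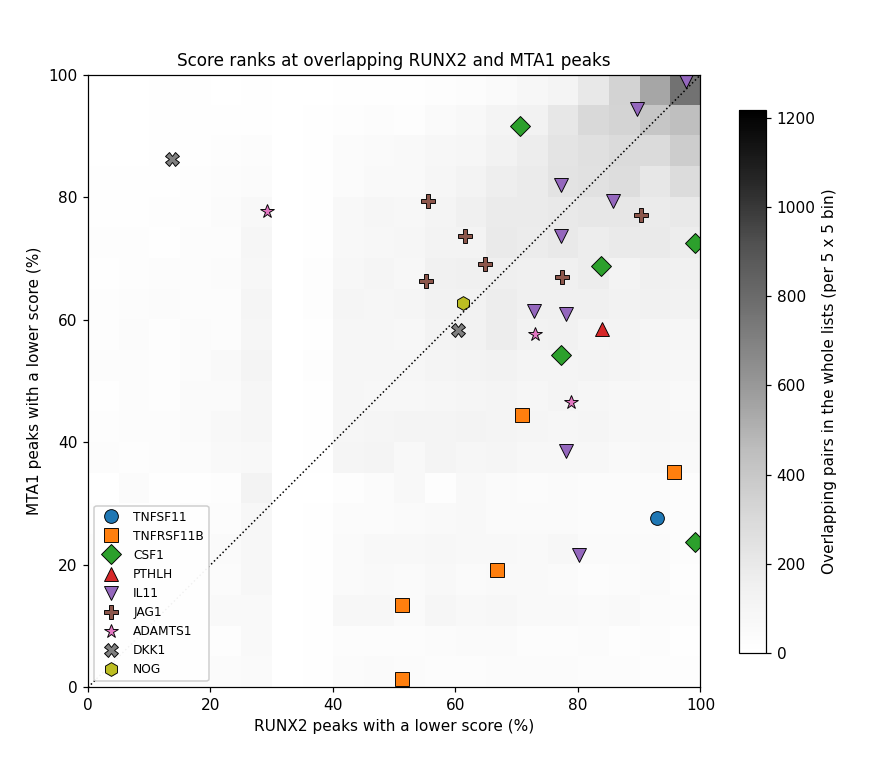
Rank of the RUNX2 peak (horizontal axis) against the rank of the MTA1 peak (vertical axis) at each overlapping pair, as the percent of the same list with a lower score, for the 33 pairs around the 10 genes (coloured symbols) over all 28440 pairs in the genome (grey, pairs per bin). Points below the dotted diagonal have a higher RUNX2 rank, as do all 5 pairs at TNFRSF11B, and the DKK1 pair at the upper left has a higher MTA1 rank.

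The homing receptor and the matrix protease, CXCR4 and ADAMTS1, came to 6 RUNX2 and 4 MTA1 peaks. CXCR4, the receptor for the chemokine CXCL12 of bone marrow, had 1 RUNX2 peak and 0 MTA1 peaks. The RUNX2 peak lay 18039 bp upstream (chr2:136136188-136136286), was 99 bp wide, the narrowest width of the RUNX2 list, and had a score of 4.33, above 13.8% of RUNX2 peaks. The nearest MTA1 peak lay just outside the window, at 52.8 kb, with a score of 5.53. In these lists a missing peak can be an absent signal or one under the threshold of the caller.

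ADAMTS1 codes for a secreted metalloprotease that cleaves proteoglycans of the matrix. It had 5 RUNX2 and 4 MTA1 peaks, 3 of each shared, and most lay on or beside the gene. The highest RUNX2 score, 13.9, was at a peak 92 bp beyond the lower-coordinate end (26835296 to 26835663), which overlapped an MTA1 peak of score 7.26. Only 26 bp beyond the opposite end, where a gene read towards lower coordinates starts, lay a RUNX2 peak of score 8.95, above 64.7% of the list, with no MTA1 peak. The highest MTA1 score, 14.1, was at a peak inside the gene (26840969 to 26841151). The RUNX2 peak overlapping it scored 5.215, and the ranks of 77.7% and 29.2% gave a gap of −48.5 points, lower than that of all but 2.59% of pairs. A second pair inside the gene had scores of 11.3 for RUNX2 and 8.73 for MTA1, with RUNX2 ranked higher.

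The secreted inhibitors of osteoblast signals, DKK1 and NOG, came to 6 RUNX2 and 4 MTA1 peaks, with 3 of each shared. DKK1 codes for Dickkopf-1, which blocks Wnt co-receptors. Its 2 RUNX2 and 2 MTA1 peaks formed 2 pairs. At the promoter the RUNX2 peak (52314122 to 52314617) had a score of 8.20 and the MTA1 peak (52314229 to 52314578) a score of 8.82, above 60.4% and 58.4% of their lists. The promoter of the antisense gene PRKG1-AS1 is overlapped by the same peaks. The second pair lay 1.41 kb past the end of the gene. There the MTA1 peak, chr10:52319038-52319359, scored 19.0, above 86.3% of its list, while the RUNX2 peak within it was 99 bp wide and scored 4.32, above 13.7%. The gap of −72.6 points was lower than that of all but 0.232% of overlapping pairs in the genome. At the promoter of DKK1 both proteins ranked alike, and downstream of it MTA1 ranked far higher.

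NOG codes for noggin, which binds and blocks BMPs. Its 4 RUNX2 and 2 MTA1 peaks all lay beyond the higher-coordinate end, and none lay in the gene. One pair, 954 bp beyond that end, shared its lower edge at 56596565, with a RUNX2 score of 8.33 and an MTA1 score of 9.65, above 61.2% and 62.8% of their lists. A second MTA1 peak of score 6.44 lay 2.10 kb beyond the end and had no RUNX2 peak. The other 3 RUNX2 peaks were 99 bp wide with scores from 5.22 to 5.63 and overlapped no MTA1 peak.

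The windows differ in length with the genes, so the counts were also set per 100 kb. The 10 genes had a median of 4.24 RUNX2 and 2.81 MTA1 peaks per 100 kb, and all protein-coding genes a median of 3.55 and 2.58. The middle 50% of all genes had 1.62 to 5.96 RUNX2 and 0.952 to 4.73 MTA1 peaks per 100 kb. The 10 genes spread from the sparse to the dense end of this range rather than around 1 level. RUNX2 peaks were densest at JAG1 (8.80 per 100 kb), IL11 (8.48) and CSF1 (6.64), and 91.0%, 89.5% and 79.5% of protein-coding genes had a lower density. For MTA1, 97.6% of genes had a lower density than IL11 (10.4 per 100 kb), 87.2% than CSF1 and 71.9% than JAG1. TNFSF11, PTHLH and CXCR4 lay at the other end, with 0.688, 0.872 and 0.963 RUNX2 peaks per 100 kb, and 12.5%, 15.2% and 17.7% of genes had fewer. Density did not follow the roles of the genes: PTHLH lay at the sparse end, and IL11 and JAG1, also inducers of bone resorption, at the dense end. The windows of TNFSF11, PTHLH and CXCR4 held 1, 0 and 0 other genes, and those of JAG1, IL11 and CSF1 held 3, 11 and 1. A link between the number of other genes and the density was not tested.

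**Figure D4:**
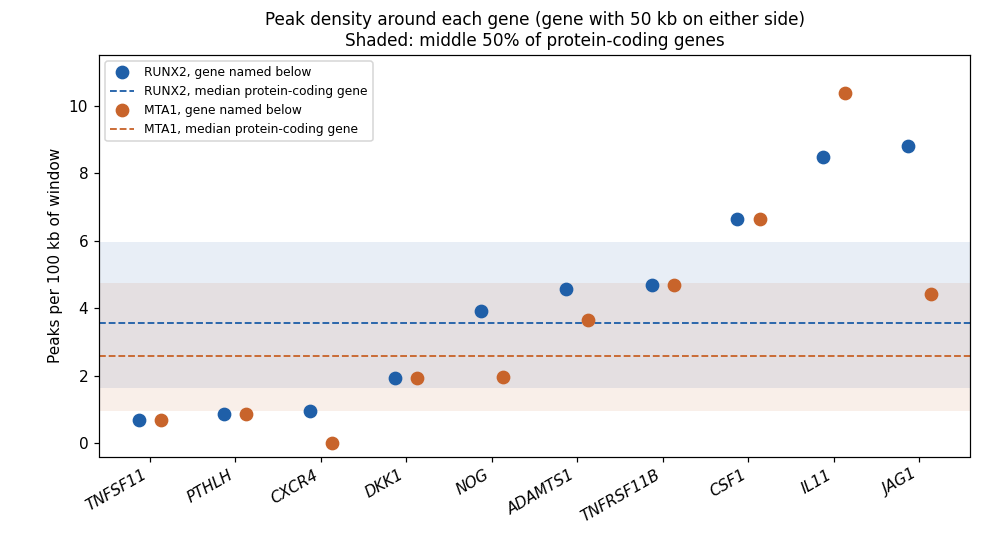
RUNX2 (blue) and MTA1 (orange) peaks per 100 kb of window (vertical axis) for each of the 10 genes, ordered by RUNX2 density, with the median (dashed) and the middle 50% (shaded) of protein-coding genes. JAG1, IL11 and CSF1 lie above the RUNX2 shading, and TNFSF11, PTHLH and CXCR4 below it.

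Most of the peaks lay more than 3 kb outside the genes. Of the 49 RUNX2 peaks 11 lay inside a gene and 32 more than 3 kb outside it, and of the 41 MTA1 peaks 7 lay inside and 28 more than 3 kb outside. Many of the peaks inside a gene were also within 3 kb of an end, as at JAG1 and DKK1. The same split over all protein-coding genes is not given here. A RUNX2 peak within 3 kb of either end was found for 6 of the 10 genes, TNFRSF11B, CSF1, JAG1, ADAMTS1, DKK1 and NOG, against 59.9% of protein-coding genes. For MTA1 it was 7, the same genes and IL11, against 59.1%. Peaks of both lists were found at 6, against 51.9%. With peaks of both among the 10000 highest-scoring of each list, it was 0 of the 10 genes and 14.8% of protein-coding genes. The genes thus had peaks at their ends about as often as other genes did. With only 10 genes, the 0 for high-ranking peaks of both proteins does not set them apart from a share of 14.8%.

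The 50 kb limit separated neighbouring values that differ little. Just inside it lay a RUNX2 peak of IL11 at 47.9 kb and an MTA1 peak of CSF1 at 48.7 kb. Just outside lay a RUNX2 peak of JAG1 at 52.3 kb with a score of 3.58, and a RUNX2 and an MTA1 peak of CSF1, both at 53.6 kb, with scores of 17.8 and 29.8. The MTA1 score of that excluded pair was above the highest MTA1 score inside the CSF1 window.

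Of the 49 RUNX2 peaks, 29 overlapped an MTA1 peak, a share of 59.2% (exact 95% interval 44.2 to 73.0, counting error only). The share was 45.4% over all RUNX2 peaks and 47.6% over those within 50 kb of a protein-coding gene. For MTA1, 33 of the 41 overlapped one of the RUNX2 list, 80.5% (65.1 to 91.2), against 65.5% over all MTA1 peaks and 66.7% near protein-coding genes. These 4 genome-wide shares lie within the intervals around the 10 genes. Peaks are not replicates, and several peaks come from the same locus. Of the RUNX2 peaks, 0 of 1 was shared at CXCR4, 1 of 4 at NOG and 6 of 12 at JAG1, while every peak at TNFSF11, PTHLH and DKK1 was shared.

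Shared peaks had higher ranks than unshared ones. Around the 10 genes the median RUNX2 peak was above 77.2% of the list where shared and above 42.3% where not, and over all peaks these values were 72.4% and 29.3%. For MTA1 the medians were 62.8% and 31.0%, against 65.2% and 24.4% over all peaks. Over shared and unshared peaks together, the median rank was 61.3% for RUNX2 and 58.5% for MTA1. Of the 49 RUNX2 peaks, 8 were among the 10000 highest-scoring, 16.3% against 16.2% of the list, and of the 41 MTA1 peaks 9 were, 22.0% against 23.4%. The narrowest peaks, 99 bp for RUNX2 and 116 bp for MTA1, made up 10 of 49 RUNX2 and 5 of 41 MTA1 peaks (20.4% and 12.2%), against 31.7% and 26.0% of the lists. Of these, 1 and 3 were shared. The shared share of all peaks of these widths is not given here, so these counts have no background.

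Among the 33 overlapping pairs around the 10 genes, RUNX2 had the higher rank in 22 and MTA1 in 11, and over all pairs RUNX2 was higher in 57.3%. The median gap was 13.1 points, against 3.66 points over all pairs, whose 10th and 90th percentiles were −25.8 and 43.8. At the osteoclast ligands and decoy, TNFSF11, TNFRSF11B and CSF1, RUNX2 ranked higher in 10 of 11 pairs, and the pairs with the highest MTA1 ranks relative to RUNX2 were downstream of DKK1 and inside ADAMTS1. Pairs at 1 locus share neighbouring sequence and are not independent. A RUNX2 peak that overlapped several MTA1 peaks entered once per MTA1 peak, as at TNFRSF11B, CSF1 and IL11.

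Other genes of the same pathways were counted from 3 lists of 58 genes. RUNX2 peaks lay inside or within 50 kb of 56 of the 58 and MTA1 peaks of 53, near the 90.8% and 86.6% of all protein-coding genes. Both lay within 3 kb of an end in 31, which is 53.4%, against 51.9% of protein-coding genes. By list, this was 9 of 14 osteoclast receptor and effector genes, 13 of 22 bone metastasis and homing genes and 9 of 22 Wnt, BMP and Notch partners. DKK2, a relative of DKK1, had no peak of either list within 50 kb. Peaks among the 10000 highest-scoring of both lists lay at an end in 5 of the 58: FOS, HIF1A, CXCL8, CCN2 and DKK4. Among all protein-coding genes the share was 14.8%. The difference rests on few genes and was not tested. At FOS, an AP-1 subunit needed for osteoclast formation, the best scores were 21.2 for RUNX2 and 18.5 for MTA1. At HIF1A, the hypoxia-inducible factor, they were 39.6 and 28.7, the highest RUNX2 and MTA1 scores among the 5. For CXCL8, the chemokine interleukin 8, they were 22.5 and 19.5, and for CCN2, connective tissue growth factor, 17.4 and 15.1. DKK4, another Wnt inhibitor of the Dickkopf family, had best scores of 25.9 and 27.6. By the same measure, the best peak within 3 kb of either end, DKK1 had 8.20 and 19.0. Neighbouring genes were not listed for these pathway genes, so a peak at an end, as at DKK4, may belong to another gene.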

How the data were processed

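CUT&Tag libraries for RUNX2 and MTA1 came from MDA-MB-231 cells, 1 per antibody. The authors called peaks in each library and deposited 1 list per library, with a position and a score for every peak. As no source used here gives the scale of that score, scores were ranked within their own list as the percent of peaks with a lower score. Per the labels, CASAVA 1.4, Bowtie 0.12.8, MACS, MACS2 and build hg19 were named. The positions fit GRCh38 instead: 271 RUNX2 and 226 MTA1 peaks lie past the hg19 ends of chromosomes 17, 18 and 20, and peaks overlapped 37.5% and 40.7% of protein-coding promoters, but 1.56% and 1.18% once moved by 100 kb. The labels and the methods name different antibody suppliers, and the labels describe adaptor ligation and size selection, which are unusual for CUT&Tag. The antibody product and the library preparation are therefore uncertain. No peak lay inside CDKN2A, a gene known to be deleted in this line.

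Genes and promoters came from RefSeq tables of GRCh38.p14. Peaks on chromosomes 1 to 22, X and Y inside a gene or within 50 kb of it were counted and printed 1-based, and an overlap was at least 1 bp. A gene end was the 3 kb on either side of either end, since strand was used only for the 6 genes with a listed promoter. Shares carry exact (Clopper-Pearson) 95% intervals, which cover counting error only. No p-value was computed. The genes and pathway lists were chosen with earlier results of these data known. The peaks named by rule are the highest-scoring and the nearest peak of each list per gene, and the other peaks were named after their values were seen. Pathway genes were named where peaks of both lists among the 10000 highest-scoring lay at an end, and DKK2 was named after its count was seen. The overlap step was tested on part of the RUNX2 list against a simulated list with 30% of its peaks planted as shared. The counts per 50 kb window were tested against a direct count. Ranks, gene ends, promoters and motifs were not part of these tests. The tools were Python 3.11.15, matplotlib 3.10.9, numpy 2.4.6, scipy 1.17.1 and pandas 2.3.3.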

Additional observations from a re-analysis of the deposited data

How the results depend on the processing

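The counts follow the limits set. A window of 10 kb left 21 RUNX2 and 19 MTA1 peaks and one of 100 kb 79 and 67, since a wider window holds more. With only the 10000 highest-scoring peaks kept, 8 RUNX2 and 9 MTA1 peaks remained. Both lists were cut, so an MTA1 peak counted as shared only if it overlapped a kept RUNX2 peak, which held for 44.4%. Against the full RUNX2 list, all 9 of these MTA1 peaks were shared. After the cut, a peak at a gene end was found for 1 gene with RUNX2, 1 with MTA1 and 0 with both. Peaks at or above the median score left 24 MTA1 peaks and 4 genes with an MTA1 peak at an end. Requiring 50% of both peaks to overlap lowered the shared share to 36.7% of RUNX2 and 43.9% of MTA1 peaks. At the start end alone, which is known for 6 genes, a RUNX2 peak was found for 2, an MTA1 peak for 3 and both for 2. Ranked without the narrowest peaks, the median rank was 52.3% for RUNX2 (61.3% with them) and 48.9% for MTA1 (58.5%). Only the latter was counted as near its main value, although both medians fell by a similar amount and no interval for a median is printed here. By construction, the counts and shares changed with the peaks, genes or bases that each limit added or removed. The median ranks changed with the list that the peaks were ranked against. Of the values recomputed, 22 stayed near the main value (counts within 1.5-fold, others within its interval) and 18 did not. No paired analysis was possible because each antibody has 1 library. The search for motifs in the peaks and its 2 alternatives needs a genome sequence and was not run. Without replicates, a control library or known depth, no difference between the lists could be tested.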

Other observations

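The RUNX2 score takes 1 value, 5.22055, in 6168 of the 61700 peaks (10.00% of the list), and 78.0% of those peaks had the narrowest width of 99 bp. Of the 49 peaks around the bone metastasis genes 5 had this score, a share near that of the list, at CSF1, JAG1, ADAMTS1 and NOG. None of them overlapped an MTA1 peak, and the shared share of all peaks with this score is not given here. Over the whole list, the median unshared RUNX2 peak held the rank of this score, above 29.3% of peaks. Peaks with the same score hold the same rank, so these 5 cannot be ordered among themselves.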
